A study of Mus musculus with 14 samples.

Results

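The urea cycle and the enzymes that break down amino acids were followed in livers with and without hepatocyte AMP-activated protein kinase (AMPK). The group is a list of 37 gene symbols chosen by function, not by measured values: 8 of the urea cycle and its carriers, 5 of glutamine and transamination, 8 of tyrosine and tryptophan, 5 of histidine, serine, proline and lysine, 3 of branched-chain amino acids, 5 of methionine and sulfur, and 3 of glycine. Of these 37, 34 were measured among 19505 named genes. Ass1, Gls2 and Sds had no named row and were not analysed here, so the urea cycle was followed through 7 of 8 genes and no glutaminase or serine dehydratase was included.

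All samples were livers of male C57BL/6-background mice homozygous for floxed alleles of both AMPK catalytic subunits, alpha1 (Prkaa1) and alpha2 (Prkaa2). The mice went on a high-fat diet (60% of calories) at 6 weeks of age for 4 weeks and were injected with virus into the jugular vein at 10 weeks. Metformin, which lowers blood glucose, was then given at 50 mg/kg/day for 3 weeks, and liver was taken after a 16 h fast; the labels also give an age of 4 months. Controls (6 samples) received AAV8-TBG-empty vector and knockouts (8 samples) AAV8-TBG-Cre, in which the TBG promoter directs Cre to hepatocytes. Endothelial, Kupffer and other cells of the whole liver are not targeted by this promoter, and no liver without metformin was analysed here. The series title concerns the part of AMPK in how metformin suppresses liver glucose production. Since no label states that every sample is its own mouse, the p-values reflect only how these samples vary, and that variation may be technical.

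The liver is the main site where amino acids lose their nitrogen. Aminotransferases pass amino groups to glutamate and aspartate, and the urea cycle, which starts in the mitochondrial matrix and ends in the cytosol, joins ammonia and the nitrogen of aspartate into urea. The remaining carbon skeletons feed glucose production and oxidation during a fast, and genes such as Tat and Tdo2 are classic targets of glucocorticoids in hepatocytes.

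The deposited values are log2 signals, and by their correlations the arrays formed 2 sets, for which no label accounts. The first (set 1) comprised controls 1 to 3 with knockouts 1 to 4, and the second (set 2) controls 4 to 6 with knockouts 5 to 8. Correlations were 0.988 to 0.994 within a set and 0.951 to 0.963 across sets, and the set was therefore a term in the comparison by limma. Each difference is the knockout level less the control level in log2 units, with a standard error (SE), and were called at a Benjamini-Hochberg adjusted p under 0.05 over all named genes. All 7 measured hepatocyte markers were bright, with mean signals of 12.7 to 13.7, and their averaged level, relative to the control mean of the set, ran from -0.029 to 0.029 in controls and from -0.051 to -0.0079 in knockouts. Control 1 and control 4 had the lowest averaged endothelial marker level of the 14 arrays, -0.75 and -0.49, where the knockouts ran from -0.35 to 0.39. Their Kupffer cell markers lay at -0.57 and -0.30, of which the latter is within the knockouts' range of -0.44 to 0.43. Counts of genes and a number of single values are also given without both arrays.

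The targeted genes fell in the knockouts. Prkaa2 read 8.76, 8.79 and 8.96 in the set 1 controls and 7.58, 7.80, 7.69 and 7.82 in the set 1 knockouts. In set 2 it read 9.67, 9.74 and 9.91 in controls and 8.54, 8.45, 8.75 and 8.78 in knockouts. Groups did not overlap within either set, and the difference was -1.13 (SE 0.0766, limma adjusted p = 1.92e-06; exact permutation within sets p = 0.000816, the smallest that 1225 splits can give). Prkaa1 fell by 0.67 (SE 0.131, limma adjusted p = 0.0303), also with no overlap within a set. Its call was lost without any 1 of control 1, 2, 4, 5 or 6 or of knockout 2, 4 or 5, with adjusted p-values over all 14 omissions from 0.0272 to 0.0771. In whole liver, fewer cells of a type and less RNA per cell cannot be told apart, and whether the array's probes lie in the deleted exons is not given in the sources used here.

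No gene of the urea cycle or of amino acid breakdown in the list passed the adjusted threshold. limma called 0 of 34 higher and 0 of 34 lower, where over all genes 0.702% were called (0.431% higher and 0.272% lower). At an unadjusted p under 0.05, 9 of 34 (26.5%) stood out, 5 higher and 4 lower, beside 10.4% of all genes. The differences of the 34 were not larger: the median absolute difference was 0.0703, beside 0.0830 for all genes. Their median residual SD, the spread left by the fit, was 0.1065 beside 0.193. Without control 1 and control 4 there were 8 of 34, 6 higher and 2 lower (23.5%), beside 10.9% of all genes. Fitted differences ran from -0.37 (Prodh) to 0.23 (Tat), 20 positive and 14 negative, with a median of 0.016 beside 0.0016 over all genes. The differences were estimated closely: the median SE was 0.0715 for the list and 0.102 for all genes. The 95% interval lay within 0.5 log2 of zero for 32 of 34, and for 17750 of all 19505 genes. The exceptions among the 34 were Prodh and Got1. With the trend and robust options of limma's eBayes step 1 member, Tdo2, was called higher.

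**Figure D1:**
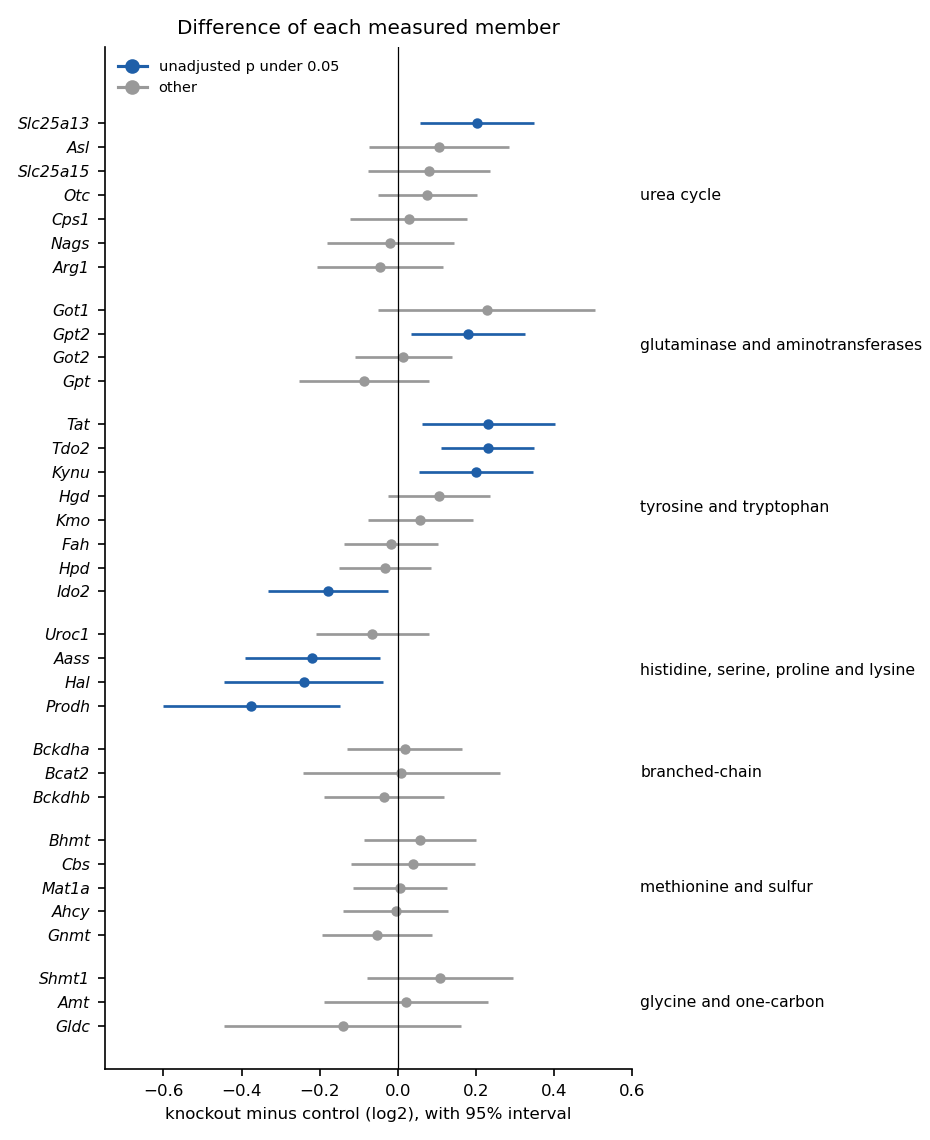
Knockout minus control difference (horizontal axis, log2) of each of the 34 measured genes, as points with 95% intervals and grouped by role; blue marks an unadjusted p under 0.05. The 3 lowest, Prodh, Hal and Aass, break down proline, histidine and lysine, while Tat, Tdo2, Got1, Slc25a13, Kynu and Gpt2 lie at 0.18 to 0.23.

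In the urea cycle the differences were small. Cps1, the mitochondrial carbamoyl phosphate synthetase that admits ammonia to the cycle, differed by 0.027 (SE 0.071). Otc, which makes citrulline, differed by 0.075 (SE 0.060), Asl, which releases arginine and fumarate, by 0.10 (SE 0.085), and Arg1, the arginase that yields urea, by -0.046 (SE 0.076). Nags, which makes the activator of Cps1, differed by -0.019 (SE 0.076), and Slc25a15, the ornithine carrier of the inner mitochondrial membrane, by 0.080 (SE 0.073). Adjusted p-values of these 6 genes lay between 0.734 and 0.968 by limma, and over the 7 measured genes the median was 0.075 with 5 positive.

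Slc25a13, the aspartate-glutamate carrier known as citrin that brings aspartate out of mitochondria for the cycle, had the smallest p of the 7. It read 10.02, 10.08 and 10.34 in the set 1 controls and 10.37, 10.42, 10.42 and 10.32 in the knockouts. In set 2 the controls read 10.30, 10.44 and 10.32 and the knockouts 10.47, 10.42, 10.57 and 10.62. Of 8 knockouts, 6 exceeded every control of their set, and 1 control in each set overlapped the knockouts. The difference was 0.20 (SE 0.0689, limma adjusted p = 0.259; exact permutation p = 0.00327), with 0.24 in set 1 and 0.17 in set 2.

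Among the aminotransferases, Gpt2, the mitochondrial alanine aminotransferase, read 10.36, 10.13 and 10.22 in the set 1 controls and 10.52, 10.43, 10.25 and 10.49 in the knockouts. Set 2 gave 11.12, 10.95 and 11.08 in controls and 11.22, 11.12, 11.22 and 11.32 in knockouts. Knockout 3 lay within the controls of its set and 7 of 8 knockouts lay above theirs. The difference was 0.18 (SE 0.0689, limma adjusted p = 0.346; exact permutation p = 0.0098). Control 1 and control 4 were the highest controls of their sets, and without both the difference was 0.23 (adjusted p = 0.290). Gpt, the cytosolic form, differed by -0.087 (SE 0.079). Got1, the cytosolic aspartate aminotransferase, differed by 0.23 with a wide SE of 0.13 (limma adjusted p = 0.600), and by 0.41 without control 1 and control 4 (adjusted p = 0.205), where its signal was 10.82 and 11.24, the highest of the controls in each set. Without knockout 7 and knockout 8 the Got1 difference was 0.13 (adjusted p = 0.841), and with 1 array left out it ran from 0.14 without control 2 to 0.31 without control 1.

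Got2, the mitochondrial aspartate aminotransferase, was among the 3 genes given for a value near zero with a small error. Its controls read 12.02, 11.92 and 11.90 in set 1 and 12.67, 12.63 and 12.63 in set 2. Its knockouts read 11.95, 12.06, 11.91 and 12.02 in set 1 and 12.66, 12.59, 12.67 and 12.60 in set 2. The groups overlapped in each set, the difference was 0.014 (SE 0.058, limma adjusted p = 0.970) with a 95% interval from -0.11 to 0.14, and its sign turned with quantile normalization.

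Tyrosine and tryptophan breakdown held the gene with the smallest p of the list. Tdo2, tryptophan 2,3-dioxygenase, opens the indole ring and starts the kynurenine pathway in liver. It and Prodh were the only listed genes whose groups did not overlap within either set, 2 of 34, beside 1.31% of all genes. The 250 bases before their transcription starts are shown because these 2 genes separated the groups array by array. They come from RefSeq on GRCm38.p6, at chr3:81975729-81975978 (minus strand) for Tdo2 and chr16:18089191-18089440 (minus strand) for Prodh, written 5′ to 3′ with motif matches in capitals.
Tdo2: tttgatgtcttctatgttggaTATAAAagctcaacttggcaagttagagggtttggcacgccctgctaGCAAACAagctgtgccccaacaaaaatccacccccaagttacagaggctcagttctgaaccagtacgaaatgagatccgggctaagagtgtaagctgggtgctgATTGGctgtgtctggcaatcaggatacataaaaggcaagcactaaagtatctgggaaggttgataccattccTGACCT
Prodh: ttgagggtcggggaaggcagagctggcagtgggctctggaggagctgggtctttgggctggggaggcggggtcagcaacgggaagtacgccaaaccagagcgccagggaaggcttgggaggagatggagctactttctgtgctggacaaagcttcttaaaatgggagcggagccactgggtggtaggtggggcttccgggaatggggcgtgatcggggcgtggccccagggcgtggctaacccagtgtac

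The motifs were chosen after the values were seen and searched on both strands of 32851 RefSeq promoters of the same length. The Tdo2 window held the letters of a TATA box (TATAAA, in 12.4% of all promoters), at 229 to 224 bases before the start. It also held a CCAAT box (CCAAT, 33.9%), a forkhead-type element (TGTTTGC, 4.30%) and a nuclear receptor half-site (AGGTCA, 14.0%), the last at its 3′ end. The Prodh window held none of the 10 motifs searched. These also included TGTTTAC (3.17%), the HNF1 half-site GTTAAT (6.43%), the HNF4 element CAAAGTCCA (0.384%), TGACG (17.8%), the C/EBP element TTGCNNAA (9.56%) and the glucocorticoid half-site AGAACA (16.1%). Of 37 genes 28 had an entry, with 31 windows in all: CCAAT was found in 16 and AGGTCA in 12, TATAAA in 4, TGACG and TTGCNNAA in 3 each, TGTTTGC and GTTAAT in 2 each, AGAACA in 1, and TGTTTAC and CAAAGTCCA in 0. A match describes the letters and is not a measured binding site.

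Tdo2 read 12.92, 12.89 and 12.97 in the set 1 controls and 13.08, 13.10, 13.12 and 13.17 in the knockouts. The set 2 arrays read 12.60, 12.60 and 12.66 in controls and 12.90, 12.91, 12.88 and 12.87 in knockouts. All 8 knockouts lay above every control of their set, by a margin larger than the range of either group in that set. The difference was 0.23 (SE 0.0561), a signal higher by 17.3%, with an unadjusted exact permutation p of 0.000816. Its limma adjusted p was 0.0808, so it did not pass, and over 30 alternatives the adjusted p ran from 9.93e-05 to 1 while the difference stayed between 0.19 and 0.27.

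**Figure D2:**
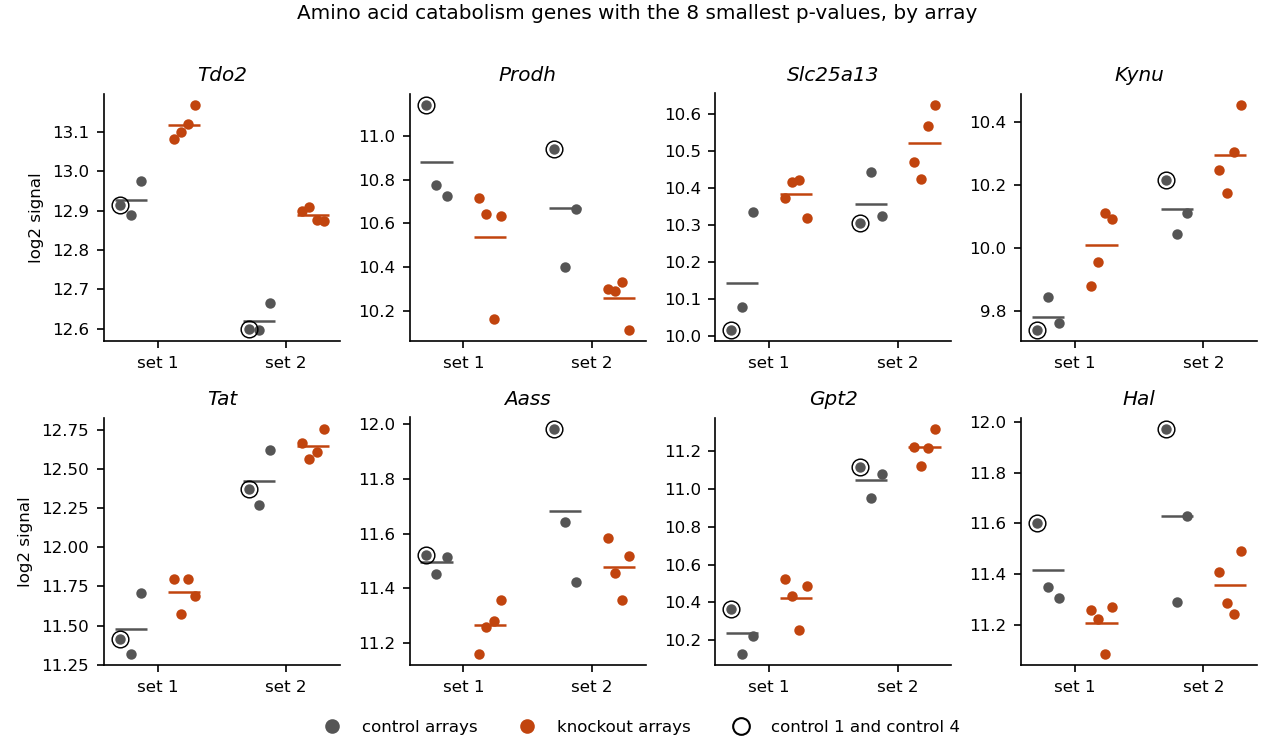
log2 signal (vertical axis, a scale of its own for each gene) of the 8 genes with the smallest p-values on every array, by array set; bars are group means and rings mark control 1 and control 4. Tdo2 and Prodh separate the groups in both sets, and the ringed controls are the highest of their sets for Prodh, Aass, Gpt2 and Hal.

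Kynu, the kynureninase further down the same pathway, was also nominally higher. It read 9.74, 9.84 and 9.76 in the set 1 controls and 9.88, 9.96, 10.11 and 10.09 in the knockouts. In set 2 it read 10.22, 10.04 and 10.11 in controls and 10.25, 10.17, 10.30 and 10.46 in knockouts. Only knockout 6 lay within the controls of its set. The difference was 0.20 (SE 0.0687, limma adjusted p = 0.267; exact permutation p = 0.00571). Kmo, the monooxygenase between these steps, differed by 0.058 (SE 0.063). Ido2, the other indole dioxygenase of the list, lay on the opposite side, at -0.18 (SE 0.0724, limma adjusted p = 0.383; exact permutation p = 0.0122), and 6 of 8 knockouts were below every control of their set.

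Tat, tyrosine aminotransferase, the entry step of tyrosine breakdown, read 11.42, 11.32 and 11.71 in the set 1 controls and 11.80, 11.57, 11.80 and 11.69 in the knockouts. Set 2 gave 12.37, 12.27 and 12.62 in controls and 12.67, 12.56, 12.61 and 12.76 in knockouts. Control 3 and control 6 overlapped the knockouts, and 4 of 8 knockouts exceeded every control of their set. The difference was 0.23 in each set and in the fit (SE 0.0806, limma adjusted p = 0.272; exact permutation p = 0.0114). The later enzymes of tyrosine breakdown gave smaller differences: Hpd, the hydroxyphenylpyruvate dioxygenase, -0.033 (SE 0.056), Hgd, the homogentisate dioxygenase, 0.11 (SE 0.062), and Fah, the last step, -0.018 (SE 0.057), with limma adjusted p-values of 0.909, 0.606 and 0.958.

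All 4 measured genes of the histidine, proline and lysine group had negative differences, with a median of -0.23, and 3 of 4 had an unadjusted p under 0.05, as did 10.4% of all genes. Without control 1 and control 4 all 4 stayed negative and 1 of 4, Prodh, kept an unadjusted p under 0.05. None passed the adjusted threshold by limma. Prodh, the mitochondrial proline dehydrogenase that starts proline oxidation, read 11.14, 10.78 and 10.73 in the set 1 controls and 10.72, 10.64, 10.16 and 10.64 in the knockouts. The set 2 arrays read 10.94, 10.40 and 10.67 in controls and 10.30, 10.29, 10.34 and 10.12 in knockouts. All 8 knockouts lay below every control of their set; the nearest arrays read 10.73 and 10.72 in set 1 and 10.40 and 10.34 in set 2. The difference was -0.37 (SE 0.107), a signal decreased by 22.9%, with a limma adjusted p of 0.153 and an unadjusted exact permutation p of 0.000816.

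Hal, histidine ammonia-lyase, the first enzyme of histidine breakdown, read 11.60, 11.35 and 11.30 in the set 1 controls and 11.26, 11.22, 11.09 and 11.27 in the knockouts. In set 2 it read 11.97, 11.29 and 11.63 in controls and 11.41, 11.28, 11.24 and 11.49 in knockouts. The groups separated in set 1 and overlapped in set 2 through control 5. The difference was -0.24 (SE 0.0960, limma adjusted p = 0.364; exact permutation p = 0.0196). Uroc1, the urocanase that follows it, differed by -0.065 (SE 0.068).

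Aass, the bifunctional enzyme that starts lysine breakdown, read 11.52, 11.45 and 11.52 in the set 1 controls and 11.16, 11.26, 11.28 and 11.36 in the knockouts. Set 2 gave 11.98, 11.64 and 11.42 in controls and 11.58, 11.46, 11.36 and 11.52 in knockouts. As with Hal, the groups separated in set 1 and overlapped in set 2. The difference was -0.22 (SE 0.0816, limma adjusted p = 0.320; exact permutation p = 0.0098).

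Control 1 and control 4 bear on these 3 genes. Without both arrays the differences were -0.24 for Prodh, -0.11 for Hal and -0.14 for Aass, with limma adjusted p-values of 0.412, 0.692 and 0.571, so that the Hal value shrank by more than 1.5 times, as did those of Prodh and Aass. Tdo2 kept a difference of 0.22 (adjusted p = 0.219). Averaged over the 34 genes, control 1 and control 4 lay 0.082 and 0.12 above the control mean of their sets, the other controls between -0.073 and -0.020, and the knockouts between -0.050 and 0.096. Of the periportal hepatocyte markers, which include Hal and Arg1, 5 of 7 had negative differences and 0 of 7 were called. By limma 2 of 7, Hal and Ctsc (-0.37), had an unadjusted p under 0.05, as did 10.4% of all genes. The averaged level of the 7 markers ran from -0.14 to 0.18 in controls and from -0.15 to -0.079 in knockouts. The part of zonation, or of control 1 and control 4, in the result was not tested.

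**Figure D3:**
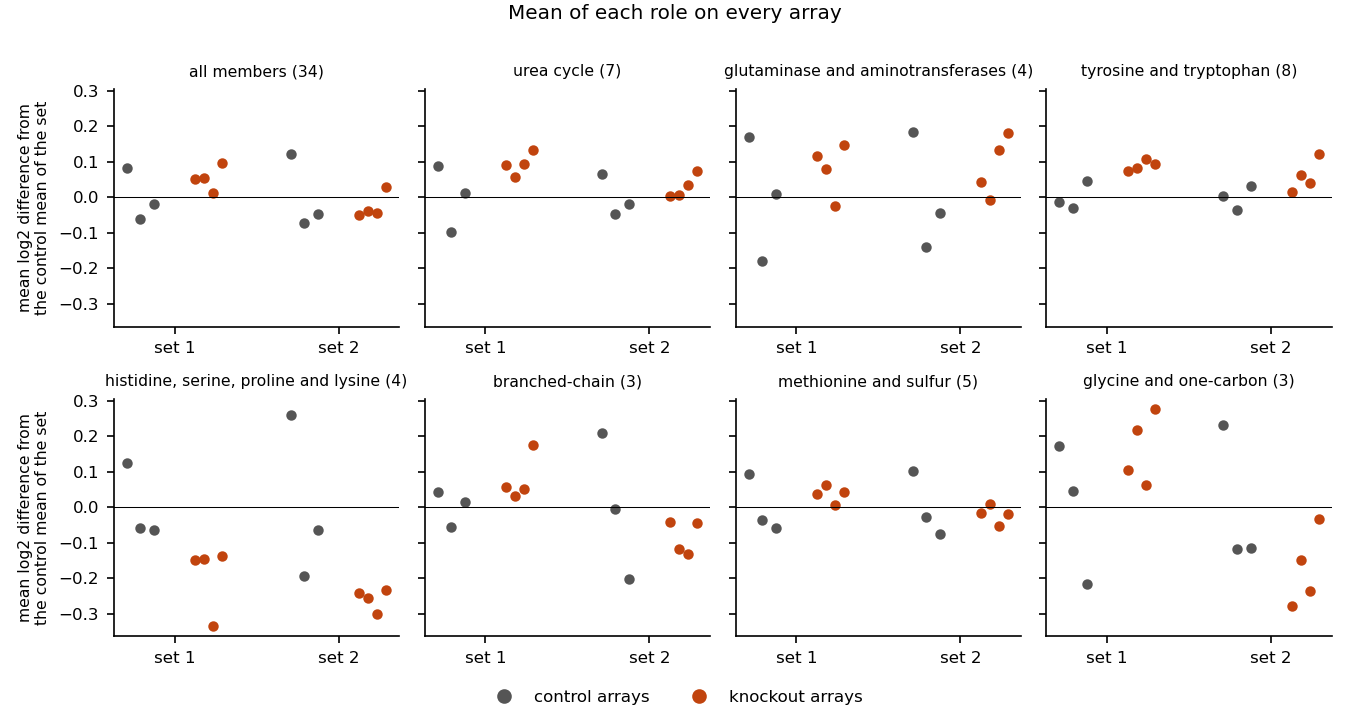
Mean log2 difference from the control mean of the array set (vertical axis) over the measured genes of each role, for every array of set 1 and set 2. In the histidine, serine, proline and lysine panel all knockouts lie between -0.33 and -0.14 and control 1 and control 4 at 0.12 and 0.26. Control 5 lies at -0.19, inside that knockout range but above the knockouts of its own set. Controls 2, 3 and 6 lie at -0.060, -0.065 and -0.065. In the panel of all 34 genes the groups overlap.

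The branched-chain genes lay near zero. Bcat2, the mitochondrial aminotransferase of leucine, isoleucine and valine, differed by 0.0091 (SE 0.12), and Bckdha and Bckdhb, the E1 subunits of the dehydrogenase that commits their keto acids to oxidation, by 0.018 (SE 0.069) and -0.035 (SE 0.072). The sign of Bcat2 turned with quantile normalization, and in none of the 3 did the sets share a sign.

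The methionine genes also lay near zero, with a median SE of 0.0666. Mat1a, the liver methionine adenosyltransferase that makes S-adenosylmethionine, read 13.02, 12.93 and 12.92 in the set 1 controls and 13.00, 13.00, 12.98 and 12.93 in the knockouts. The set 2 arrays read 13.35, 13.31 and 13.24 in controls and 13.27, 13.30, 13.28 and 13.32 in knockouts. The groups overlapped in each set, and the difference of 0.0057 (SE 0.056, limma adjusted p = 0.990) had a 95% interval from -0.11 to 0.13.

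Ahcy, the hydrolase that clears S-adenosylhomocysteine, read 12.37, 12.22 and 12.42 in the set 1 controls and 12.33, 12.39, 12.29 and 12.36 in the knockouts. In set 2 it read 13.04, 12.91 and 12.87 in controls and 13.04, 12.92, 12.85 and 12.87 in knockouts. Here too the groups overlapped, with a difference of -0.0056 (SE 0.064, limma adjusted p = 0.992) and an interval from -0.14 to 0.13. Gnmt, the glycine N-methyltransferase that uses up excess methyl groups, differed by -0.054 (SE 0.067), with knockout 5 below the other knockouts. Bhmt, which remethylates homocysteine from betaine, differed by 0.056 (SE 0.068), and Cbs, which sends homocysteine toward cysteine, by 0.039 (SE 0.075).

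In the glycine group the 2 array sets gave opposite signs for all 3 genes. Gldc, the decarboxylase of the glycine cleavage system, read 8.95, 8.75 and 8.06 in the set 1 controls and 8.94, 8.70, 8.47 and 8.72 in the knockouts. Set 2 gave 9.93, 9.54 and 9.59 in controls and 9.24, 9.24, 9.12 and 9.54 in knockouts. Control 3 was far below the other controls of set 1, and in set 2 all 4 knockouts lay below the controls. The difference was 0.12 in set 1 and -0.40 in set 2, and -0.14 in the fit (SE 0.14, limma adjusted p = 0.811). Without control 3 the fitted value was -0.29 (adjusted p = 0.321), and with any 1 array left out it ran from -0.29 to -0.055; without control 1 and control 4 it was 0.0105. Amt, the aminomethyltransferase of the same system, differed by 0.020 (SE 0.099), with the sign turned by quantile normalization, and Shmt1, the cytosolic serine hydroxymethyltransferase, by 0.11 (SE 0.088), with knockout 4 above the other knockouts.

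The difference between sets was itself tested. By the interaction of group and set in limma, 0 of 34 genes were called and 0 of 34 had an unadjusted p under 0.05, beside 0% and 4.83% of all genes. Gldc came nearest, with an unadjusted interaction p of 0.0659 over 14 arrays in a model fitted across all genes. The sign was shared by the sets for 22 of 34 genes (64.7%), beside 55.3% of all genes. Without the set term limma called 0 of 34, and 0% of all genes; 4 of 34 then had an unadjusted p under 0.05, beside 3.36% of all genes.

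**Figure D4:**
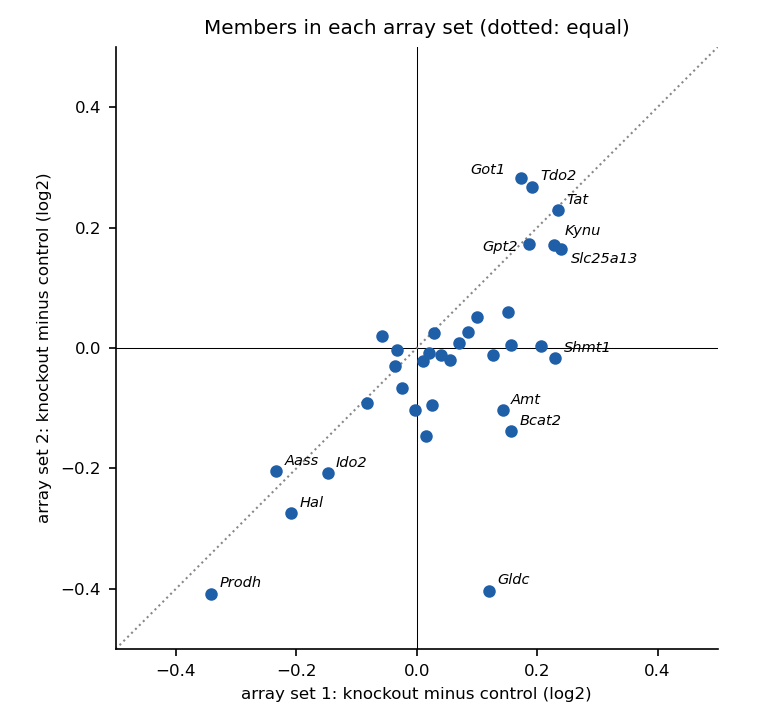
Knockout minus control difference (log2) of each of the 34 genes in array set 1 (horizontal axis) against set 2 (vertical axis), with 3 controls and 4 knockouts in each; the dotted line marks equality. The 9 genes with an unadjusted p under 0.05 and Got1 lie near the line, and Gldc lies farthest from it, at 0.12 and -0.40.

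Other genes of amino acid metabolism were taken from lists of 160 symbols, of which 144 were measured. limma called 0 of 144 higher and 5 of 144 lower; at an unadjusted p under 0.05 there were 12 higher and 20 lower (22.2% in all). Over all genes 0.431% were called higher and 0.272% lower, and 10.4% had an unadjusted p under 0.05. Without control 1 and control 4, 13 of 144 were higher and 12 lower at an unadjusted p under 0.05 (17.4%, beside 10.9% of all genes). The median difference was -0.0055. The median absolute difference was 0.0883, beside 0.0830 for all genes, and the median residual SD 0.143 beside 0.193. The calls lay in the transporter, aromatic and glycine lists: 3 of 27 amino acid transporters, 1 of 12 other aromatic genes and 1 of 19 other glycine genes fell, where 0.272% of all genes did. The lists, the transporters among them, were assembled with the result for Slc3a1 known, so these counts are not independent evidence.

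Slc3a1, the heavy chain of the cystine and dibasic amino acid exchanger, fell most clearly. It read 9.15, 8.998 and 8.63 in the set 1 controls and 8.41, 8.32, 8.61 and 8.59 in the knockouts. The set 2 arrays read 9.54, 9.14 and 9.30 in controls and 8.58, 8.56, 8.45 and 8.27 in knockouts. The groups did not overlap in either set, although control 3 and knockout 3 nearly met. The difference was -0.65 (SE 0.109), a signal decreased by 36.4%, with a limma adjusted p of 0.0133, and it held without any 1 of the 14 arrays. It did not pass without control 1 and control 4 (-0.55, adjusted p = 0.0686) or without knockout 7 and 8 together (-0.57, adjusted p = 0.0792). Slc7a9, the light chain that pairs with Slc3a1, was looked at after its values were seen and differed by -0.26 (SE 0.0713, limma adjusted p = 0.141). Its signal was low, 3.82 to 4.45 over the 14 arrays, and lay below the median of every array. The background level is not given, and whether the Slc7a9 signal lies above it was not tested.

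The other transporters that fell were Slc43a1 and Slc1a2. Slc43a1, a carrier of large neutral amino acids, fell by 0.68 (SE 0.137, limma adjusted p = 0.0335), with 7 of 8 knockouts below every control of their set; the call held without control 6 or knockout 2, 3, 7 or 8, each left out alone, and was lost without any other array. Slc1a2, the glutamate transporter of pericentral hepatocytes, fell by 0.37 (SE 0.0811, limma adjusted p = 0.0454), and all 8 knockouts lay below every control of their set. Of the 7 pericentral markers 5 had negative differences, and Slc1a2 was the only one called. Its call was lost without each of the 14 arrays in turn, with adjusted p-values from 0.0558 to 0.105, while the difference stayed between -0.41 and -0.34.

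Kyat1, a kynurenine aminotransferase that draws kynurenine toward kynurenic acid, read 10.64, 10.63 and 10.63 in the set 1 controls and 10.36, 10.37, 10.21 and 10.41 in the knockouts. In set 2 it read 11.27, 11.10 and 11.27 in controls and 10.85, 10.79, 10.99 and 11.00 in knockouts. The groups did not overlap in either set. It fell by 0.30 (SE 0.0646, limma adjusted p = 0.0439), a call that no omission of 1 array left standing (adjusted p 0.0512 to 0.104), although the difference stayed between -0.32 and -0.28. Sardh, the mitochondrial sarcosine dehydrogenase that returns the product of Gnmt to glycine, fell by 0.31 (SE 0.0675, limma adjusted p = 0.0439). Its groups did not overlap in either set. With 1 array left out, the Sardh call held only without knockout 2 or knockout 6.

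**Figure D5:**
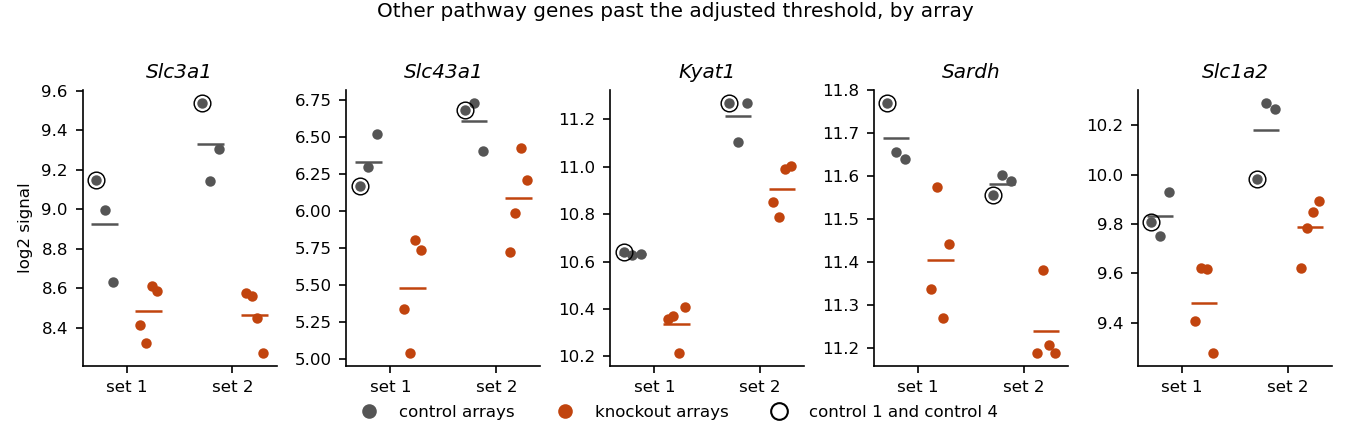
log2 signal (vertical axis, a scale of its own for each gene) of the 5 other amino acid genes that fell, on every array, by array set; bars are group means and rings mark control 1 and control 4. For Slc3a1, Kyat1, Sardh and Slc1a2 every knockout lies below every control of its set, and for Slc43a1 this holds for 7 of 8 knockouts.

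The other 4 genes did not pass without control 1 and control 4 either, but their differences moved little: -0.29 for Kyat1, -0.30 for Sardh, -0.43 for Slc1a2 and -0.71 for Slc43a1, with limma adjusted p-values of 0.163, 0.162, 0.0787 and 0.110. Without the set term the differences of all 5 were the same and the standard errors larger, and none passed. In the remaining lists nothing passed; the genes with the smallest p-values follow. Agmat, an agmatinase, differed by 0.24 (SE 0.0743, limma adjusted p = 0.195) and Car5a, the mitochondrial carbonic anhydrase that supplies bicarbonate to Cps1, by -0.18 (SE 0.0726, adjusted p = 0.385). Aspg, an asparaginase, differed by -0.38 (SE 0.0965, adjusted p = 0.0940), and Srr, serine racemase, by 0.26 (SE 0.0803, adjusted p = 0.198). No other branched-chain gene of 21 had an unadjusted p under 0.05; the nearest were Hibadh at -0.096 and Pccb at 0.091.

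Among the other sulfur genes, Csad, which makes hypotaurine, differed by 0.52 (SE 0.170, limma adjusted p = 0.224) and Sqor, the sulfide oxidase of mitochondria, by -0.23 (SE 0.0744, adjusted p = 0.229). Nnmt, which methylates nicotinamide with S-adenosylmethionine, was singled out after its values were seen: it had the largest difference of the 144, -1.17, with an SE of 0.433 and an adjusted p of 0.314. Its signal ran from 9.35 to 11.89 in the set 1 controls, where the difference was -0.64 (SE 0.641). In set 2 the difference was -1.70 (SE 0.413), and the knockouts, at 8.76, 8.85, 7.38 and 7.18, all lay below the controls, at 10.25, 9.65 and 9.32. Of the regulators, Tsc22d3, a glucocorticoid-induced gene, differed by 0.41 (SE 0.115, limma adjusted p = 0.149) and Ppara, the fatty acid sensing receptor, by 0.21 (SE 0.0674, adjusted p = 0.217). Per1 and Fkbp5, also induced by glucocorticoids, were named after their values were seen. Per1 had the lowest difference of the regulators, -0.16, and the groups of Fkbp5 overlapped in each set. Tat and Tdo2, the glucocorticoid targets named above, each differed by 0.23 and did not pass. The part of glucocorticoids in these values was not tested. With the trend and robust options Agmat, Tsc22d3 and Ppara were called higher, and Aspg and Slc16a10 were called lower beside the 5 that fell.

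Slc16a10, a carrier of aromatic amino acids, was named after its values were seen. It differed by -0.31 (SE 0.0720, limma adjusted p = 0.0678), with all 8 knockouts below every control of their set. Aspg and Slc16a10 also passed among genes above the median level and at a threshold of 0.1.

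No marker of endothelial, Kupffer, stellate, bile duct, lymphocyte or blood cells was called by limma, and 1 lymphocyte marker had an unadjusted p under 0.05. Lymphocyte markers had positive differences for 7 of 7 genes, and their averaged level ran from -0.20 to 0.14 in controls and from 0.035 to 0.31 in knockouts. Blood cell markers had negative differences for 4 of 4 genes, with a median of -0.16; their averaged level ran from -0.21 to 0.36 in controls, control 1 being the highest, and from -0.46 to 0.062 in knockouts. Endothelial markers, 5 of 10 with positive differences, ran from -0.75 to 0.38 in controls and from -0.35 to 0.39 in knockouts. Kupffer cell markers, 9 of 10 positive, ran from -0.57 to 0.35 in controls and from -0.44 to 0.43 in knockouts. The part of these cell types in the differences above was not tested.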

How the data were processed

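Liver RNA of 14 samples was labelled with the Affymetrix WT PLUS kit, per the labels. The deposited table holds 1 log2 signal per row and array, made with RMA and Partek per the submitters' processing notes; versions, build and background level are not given in the sources used here. The log2 scale was inferred from the deposited values, which run from 2.13 to 13.8 with array medians of 5.73 to 5.87. RMA normalizes between arrays, and no further normalization was applied. Read depth does not apply to arrays; their number limits the precision.

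Of 22206 rows, 19572 had 1 gene symbol and 2634 were unnamed. For 55 genes with several rows the row with the highest mean stood for the gene, which gave 19505 genes, none filtered by level. Knockout minus control was fitted in limma 3.58.1 under R 4.3.3 (lmFit, then eBayes), with the array set as a term and 11 residual degrees of freedom, adjusted by Benjamini-Hochberg over all genes. Sets came from average-linkage clustering of array correlations without using the groups. Exact permutation tests were two-sided over 1225 splits within sets, and their p-values were not adjusted for the number of genes. No 2 arrays held identical values; knockout 7 and 8 carry the description numbers of knockout 5 and 6 again and were counted as samples of their own. The fit was tested on simulated data.

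The genes, lists, set term and alternatives were chosen with earlier results of these data known. Given in full are members past the threshold or, where under 8 pass, the 8 with the smallest p, and the 3 nearest zero among the smallest standard errors. Of each other list the text names up to 4 that passed, or otherwise the 1 or 2 with the smallest p; further genes are said to be chosen after their values were seen. Alternatives left out arrays, the set term or dim genes, used the replicate number as a block, and changed normalization, eBayes options, array weights, row choice or threshold.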

Additional observations from a re-analysis of the deposited data

Results flagged for a closer look

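In 3 groups of arrays 1 sample stood apart from the rest by Dixon's 95% criterion. The values were taken relative to the mean of all arrays of the set, controls and knockouts together. Control 3 was low for Gldc, at -0.598 where the other controls lay between 0.085 and 0.475. Knockout 5 was low for Gnmt, at -0.191 against -0.043 to 0.029 for the other knockouts. Knockout 4 was high for Shmt1, at 0.28 against -0.043 to 0.064. The 82 groups tested (41 genes) would give about 4.1 such samples by chance, 1 in 20.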

How the results depend on the processing

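The call of 0 higher genes of the 34 became 1 (Tdo2) with trend and robust eBayes, with genes above the median level only and at a threshold of 0.1; 0 were lower under all 30 alternatives. The other pathway genes called lower numbered 0 without the set term, in set 1 or set 2 alone, with the replicate block, without control 1 and control 4, and at a threshold of 0.01. They numbered 2 with knockouts 5 and 7 and 6 and 8 averaged, 1 without knockout 7 and 8, 3 with median centring or array weights, and 1 to 3 with 1 array left out. They numbered 6 with either quantile normalization and 7 above the median level, with trend and robust and at a threshold of 0.1; those called higher numbered 3 with trend and robust. Over all genes the calls, 137 in the comparison, numbered 0 without the set term, 2 in set 1, 2 in set 2, 2 with the replicate block, 26 without control 1 and control 4, 67 with averaged knockouts, 12 without knockout 7 and 8, 272 above the median level, 325 with trend and robust, 18 and 242 at thresholds of 0.01 and 0.1, and 44 to 132 with 1 array left out. The median of the 34 was 0.0629 in set 1, 0.0687 without control 1 and control 4, and -0.0057 to 0.0522 with 1 array left out. The cause of these shifts was not tested. Above the median level fewer genes enter the fit, and its standard errors change too. For Tdo2 the SE was 0.0462 there and 0.0561 in the comparison.

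Prkaa1 did not pass without the set term (-0.67), in set 1 (-0.48), in set 2 (-0.85), with the replicate block (-0.55), without control 1 and control 4 (-0.64), without knockout 7 and 8 (-0.62) and at a threshold of 0.01, and ran from -0.73 to -0.58 with 1 array left out. Prkaa2 did not pass without the set term (-1.13). The replicate numbers did not pair the samples: same-numbered samples correlated at 0.0229 to 0.0871 in their deviations, none best with its own number, and with the block 0 of 34 genes were called.

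Signs turned for 16 of 34 genes, none past the threshold on either side. In set 1 alone Uroc1 was 0.0161, Bckdhb 0.0255, Ahcy 0.0111 and Gldc 0.1203. In set 2 alone Nags was 0.0192, Got2 -0.0115, Kmo -0.0112, Bckdha -0.0199, Bcat2 -0.1381, Mat1a -0.0084, Amt -0.1035 and Shmt1 -0.0161. With the replicate block Arg1 was 0.0151 and Ahcy 0.0398. Without control 1 and control 4 Arg1 was 0.0405, Gpt 0.0126, Ahcy 0.0291 and Gldc 0.0105. With quantile normalization between arrays and within sets Got2 was -0.0082 and -0.0131, Bcat2 -0.0112 and -0.0018, and Amt -0.0046 and -0.0039. Ahcy was 0.0223 without knockout 7 and 8 and 0.0027 with array weights. With 1 array left out, Cps1 ran from -0.0064 to 0.0668, Arg1 from -0.0843 to 0.0157, Nags from -0.0696 to 0.0128, Bckdha from -0.0114 to 0.0585, Bckdhb from -0.0717 to 0.0027, Bcat2 from -0.0509 to 0.1014, Cbs from -0.0028 to 0.0785, Mat1a from -0.0068 to 0.0192, Ahcy from -0.0334 to 0.0192 and Amt from -0.0191 to 0.0691.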
